A study of Mus musculus with 10 samples.

Results

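Genes that differed between 2 kinds of vector were compared in 10 RNA libraries of iKCs, the name that the labels give to a mouse cell line. The hairpin vectors were the 5 libraries titled miR-342-3p overexpression (n = 3) or mutated miR-342-3p control (n = 2). The sponge vectors were the other 5, titled miR-342-3p sponge (n = 3) or scramble control sponge (n = 2). The titles put each library in its vector type, and together these are the 10 libraries of the series analysed here. All cells had received a vector, which the series' design text abbreviates as LV, and live cells positive for the fluorescent protein mOrange were taken by flow sorting. Polyadenylated RNA was then sequenced. No library of cells without a vector was analysed here. The titles speak of biological replicates, but how the cultures were kept apart is not given, so a p-value reflects library-to-library spread, which may be technical.

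MicroRNAs are cut from hairpin transcripts by Drosha and Dicer, and the mature strand guides Argonaute to transcripts that pair with its seed, the bases near the 5′ end. A hairpin vector adds such a precursor to the cell. A sponge vector instead expresses a transcript with many binding sites that hold the microRNA away from its targets. The control of each kind keeps the vector and changes the active sequence. In macrophages, foreign nucleic acid, a viral vector included, can be sensed and can induce interferon-stimulated and inflammatory genes. The question was which genes both hairpin vectors moved alike against both sponge vectors.

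The sequences that tell the vectors apart start from the miR-342 precursor. They are printed from RefSeq (GRCm38.p6, chromosome 12, 108658620 to 108658718, plus strand) because the hairpin is the element that one arm of the comparison carries. Both mature strands have the seed, bases 2 to 8, in capitals, and the precursor has both mature strands in capitals. The sequences of the mutated hairpin and of both sponges were not used here.
mmu-miR-342-3p: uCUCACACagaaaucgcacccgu
mmu-miR-342-5p: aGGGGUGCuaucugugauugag
miR-342 precursor: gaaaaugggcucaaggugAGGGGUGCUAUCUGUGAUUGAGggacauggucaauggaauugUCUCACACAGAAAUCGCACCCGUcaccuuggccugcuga

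Reads over this hairpin checked the labels of the vectors. The deposited table places Mir342 on chromosome 12 from 108624879 to 108624977, inside its host gene Evl. Overexpression replicates 1, 2 and 3 had 487, 483 and 242 reads there, and mutated control replicates 1 and 2 had 136 and 133. No read fell there in any of the 5 sponge-vector libraries; in the shallowest of them a count of 0 allows up to 0.0886 CPM, a gene's count scaled to library size. Mir342 was thus at least 109-fold higher with overexpression (9.64 ± 1.54 CPM, SD, n = 3) and at least 34.3-fold higher in the mutated control (3.04 ± 0.256 CPM, SD, n = 2). Both bounds take 3 counts in the shallowest scramble library as the floor and cover counting error only. These polyadenylated reads stand for transcripts with the hairpin, not for the mature microRNA. Evl itself had 86.2 ± 5.24 CPM in the hairpin libraries and 89.1 ± 4.07 CPM in the sponge-vector libraries (SD, n = 5 each; log2 fold change −0.04, SE 0.05, edgeR adjusted p = 0.811). The host gene thus did not pass where its microRNA did.

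The libraries held 25713110 to 59260772 counts, and the totals of the vector types overlapped (exact two-sided permutation test, p = 0.675, n = 5 each). All 10 macrophage markers, among them Csf1r, Adgre1 and Cd68, were at 57.8 CPM or more in every library, with sums of 5423 to 6376 CPM in hairpin and 6029 to 6712 CPM in sponge-vector libraries. Of 8 Kupffer cell markers, Clec4f and Timd4 were at 0 in all 10 libraries and Vsig4 reached at most 0.0934 CPM. The others were low but present. Spic was at 9.62 to 14.4 CPM, Id3 at 3.53 to 6.43, Cd5l at 1.35 to 2.79, Nr1h3 at 1.73 to 2.63 and Folr2 at 0.416 to 1.09 CPM. Sums of the 8 ran from 17.7 to 26.2 CPM in hairpin and from 19.6 to 24.1 CPM in sponge-vector libraries. Of 19 markers of hepatocytes, endothelium, fibroblasts and other blood cells, 16 were under 1 CPM in every library and 4 were at 0 everywhere (Ttr, Cyp3a11, Cd3e and Nkg7). Their sums were 21.4 to 31.5 and 24.0 to 25.9 CPM, most of it from the endothelial marker Kdr at 17.7 to 27.1 CPM. No marker of these 3 lists passed the test between the vectors. The share of mitochondrially encoded reads was 1.31% ± 0.0362 in hairpin and 1.41% ± 0.0600 in sponge-vector libraries (SD, n = 5 each; exact permutation p = 0.0317, adjusted over 5 measures 0.0794). The share of the 50 most abundant genes was 10.5% ± 0.268 against 10.9% ± 0.205 (SD, n = 5 each; exact permutation p = 0.0238, adjusted 0.0794). The smallest p that 5 against 5 libraries allow is 0.00794. The part of either share in the results below was not tested.

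Few genes separated the vector types. Of 15767 genes tested, 38 passed an edgeR adjusted p of 0.05 (0.241%), 22 higher with hairpin vectors (0.14%) and 16 lower (0.101%). An unadjusted p under 0.05 was found for 2217 genes. The changes were small: 17 of the 38 reached 1.5-fold and 5 reached 2-fold. All 5 hairpin libraries lay outside the range of all 5 sponge-vector libraries for 32 of the 38, against 3.68% of all tested genes (1.57% with all hairpin libraries above, 2.11% with all below). The rises included Mir342, D-type cyclins, chemokines and immediate early genes. The falls included 6 genes of a cluster of paired immunoglobulin-like receptors and the interferon-inducible GTPases Gbp6 and Tgtp2, and the largest fall was that of Gm14303.

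The count of 38 rested on single libraries. It ranged from 4 without scramble replicate 1 to 183 without overexpression replicate 1. Leaving out sponge replicate 3 gave 144 and overexpression replicate 3 gave 111. Leaving out mutated control replicate 1 or 2 gave 11 or 5, sponge replicate 1 or 2 gave 10 or 9, overexpression replicate 2 gave 10 and scramble replicate 2 gave 6. Sponge replicate 3 and scramble replicate 1 share a joined field in the deposited table that had to be split, and without both the count was 6. A fit of 5 against 5 libraries that ignores the 4 groups called 7, and DESeq2 called 390. Mir342, Plk3, Pira12 and Klf2 were called whichever single library was left out, and Ccl2 in 9 of 10 such fits. All 38 kept their direction in each of 23 alternatives, a weak check because these fit again the libraries by which the genes were chosen.

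**Figure D1:**
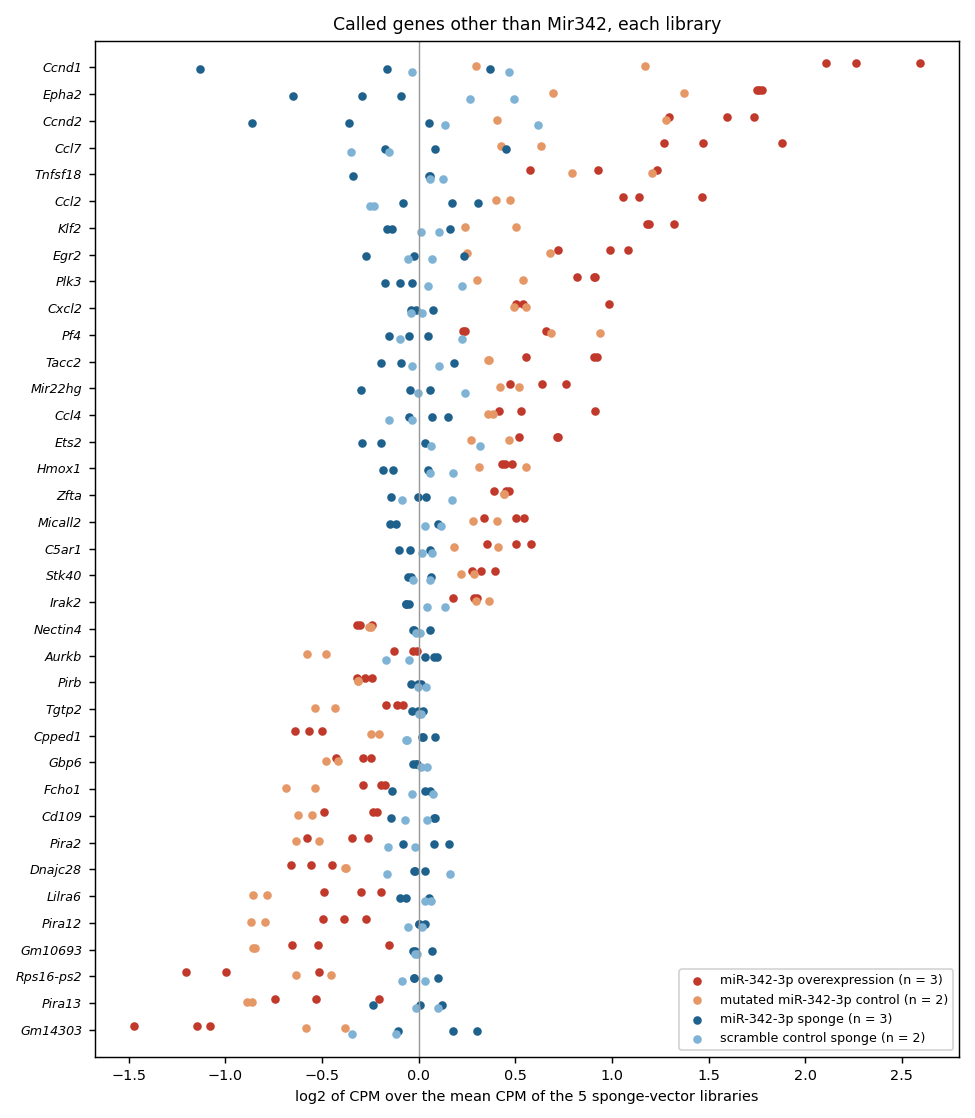
Levels of the 37 called genes other than Mir342 (rows) in each of the 10 libraries (points, coloured by group), as log2 of the CPM over the mean CPM of the 5 sponge-vector libraries (horizontal axis). In Klf2, Ccl2 and Ccl7 the 3 overexpression points lie to the right of both mutated control points, and in Pira12 and Tgtp2 the mutated control lies farthest to the left.

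A gene moved alike had to pass in the pooled comparison and in each hairpin group against the mean of both sponge groups, in the same direction. Those 2 comparisons share the 5 sponge-vector libraries, so the resulting counts are a description. Only 4 genes met this (0.0254% of those tested): Mir342, which rose, and Pira12, Pirb and Gbp6, which fell. No gene passed in both hairpin groups in opposite directions. On its own, overexpression passed for 196 genes against the sponge vectors (1.24%), 111 higher (0.704%) and 85 lower (0.539%). The mutated control passed for 36 (0.228%), 15 higher (0.0951%) and 21 lower (0.133%). Of these, 167 and 24 did not pass in the pooled comparison. The 4 were also not stable to single libraries: the count fell to 1, Mir342, in 6 of the 10 fits that each left out a library and reached 14 without overexpression replicate 1, 13 without sponge replicate 3 and 11 without overexpression replicate 3. DESeq2 counted 42.

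Pirb, an inhibitory receptor of myeloid and B cells that binds MHC class I, had one of the smallest falls by fold and little spread. Its levels were 244, 237 and 250 CPM with overexpression and 237 and 238 CPM in the mutated control. The sponge libraries had 295, 298 and 288 CPM and the scramble libraries 303 and 294 CPM. No hairpin library reached the lowest sponge-vector library, and the hairpin groups lay on the same level. Pirb was 1.23-fold lower with hairpin vectors (log2 fold change −0.30, SE 0.04, edgeR adjusted p = 0.0141). It fell by 0.28 (SE 0.04) with overexpression and by 0.32 (SE 0.05) in the mutated control on the log2 scale. The 2 hairpin groups differed by 0.04, with a 95% interval from −0.08 to 0.16. The call for Pirb held in 3 of the 10 fits without a single library, with adjusted p up to 0.161.

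Pira12, a member of the activating receptors that pair with the same adaptor chain as Fc receptors, fell further. Its levels were 12.1, 13.0 and 14.1 CPM with overexpression, 9.79 and 9.31 CPM in the mutated control, 17.4, 17 and 17 CPM with the sponge and 16.4 and 17.2 CPM with the scramble. The groups did not overlap, and the mutated control was the lowest. Pira12 was 1.52-fold lower (log2 fold change −0.61, SE 0.06, edgeR adjusted p = 0.00297). The fall of 0.83 (SE 0.08) in the mutated control was larger than that of 0.39 (SE 0.07) with overexpression, and this difference itself passed (0.44, 95% interval 0.26 to 0.63, edgeR adjusted p = 0.0489).

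Gbp6, a guanylate-binding protein induced by interferon that acts on pathogen vacuoles, was the third. Overexpression had 72.0, 63.4 and 69.9 CPM and the mutated control 61.0 and 63.8 CPM. The sponge libraries had 83.4, 84.6 and 84.5 CPM and the scramble libraries 85.9 and 87.9 CPM. The sponge-vector libraries were close together and all above the hairpin libraries. Gbp6 was 1.31-fold lower (log2 fold change −0.39, SE 0.05, edgeR adjusted p = 0.00834), and the hairpin groups differed by 0.13 with a 95% interval from −0.01 to 0.28. Its call held in 6 of 10 fits without a single library.

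**Figure D2:**
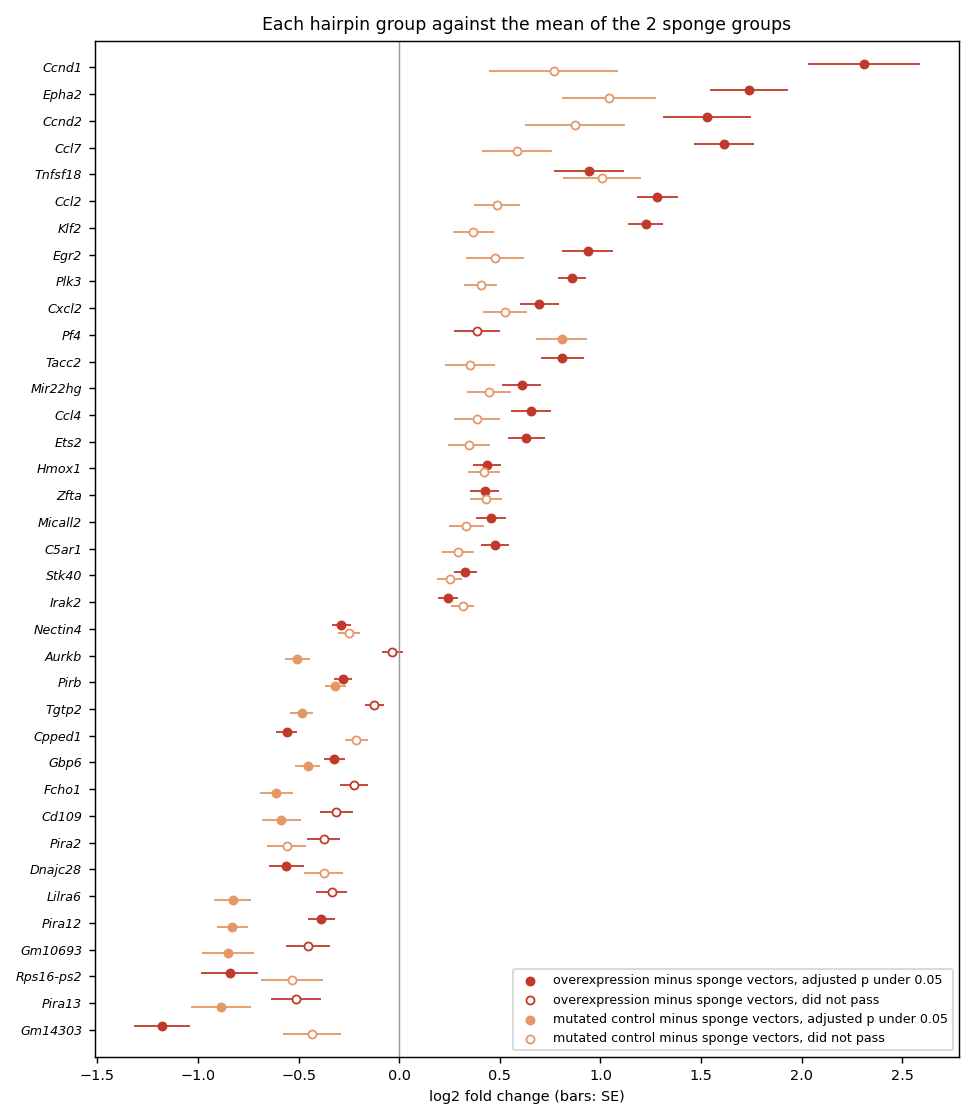
Log2 fold change (horizontal axis, bars of 1 SE) of the 37 called genes other than Mir342 (rows) in overexpression and in the mutated control, each against the mean of both sponge groups, whose libraries they share. Filled points passed an edgeR adjusted p of 0.05 and open points did not, and both points are filled only for Pirb, Gbp6 and Pira12.

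Most of the other called genes passed in 1 hairpin group and not in the other, which by itself does not show that the groups differed. Of the 38, 25 passed in the overexpression group only, 8 in the mutated control only and 1, Pira2, in neither alone. Among the 22 rises, 21 passed with overexpression and 2 with the mutated control. Among the 16 falls, 8 passed with overexpression and 10 with the mutated control. The rise was larger with overexpression for 18 of 22 genes, and the fall was larger in the mutated control for 11 of 16. The difference between the hairpin groups passed for 8 of the 38, against 0.539% of all tested genes: Mir342, Klf2, Ccl2 and Ccl7 among the rises and Pira12, Tgtp2, Aurkb and Cpped1 among the falls. For the other 30 it did not pass, which does not show that both vectors acted alike. The comparison of sponge with scramble passed for none of the 38, and for 0 of all 15767 tested genes (edgeR, adjusted p). It therefore does not show that the sponge groups were level for the called genes. Sponge minus scramble was −0.76 (SE 0.29) for Ccnd2 and 0.38 (SE 0.13) for Ccl2 on the log2 scale.

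The chemokines Ccl2, Ccl7, Cxcl2, Ccl4 and Pf4 rose, and for Ccl2 and Ccl7 the rise was larger with overexpression than in the mutated control. Ccl2, which draws monocytes through Ccr2, had 362, 288 and 273 CPM with overexpression and 173 and 182 CPM in the mutated control. Sponge libraries had 147, 124 and 162 CPM and scramble libraries 112 and 110 CPM. All hairpin libraries were higher, with overexpression well above the mutated control. Ccl2 was 1.85-fold higher over both hairpin groups (log2 fold change 0.88, SE 0.09, edgeR adjusted p = 0.00297). Against the sponge vectors overexpression passed (1.28 on the log2 scale, edgeR adjusted p = 0.000331) and the mutated control did not (0.49, adjusted p = 0.127). The hairpin groups differed by 0.80 (95% interval 0.51 to 1.08, edgeR adjusted p = 0.0295).

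Ccl7, a monocyte chemokine encoded next to Ccl2, had 136, 103 and 89.3 CPM with overexpression, 49.9 and 57.5 CPM in the mutated control, 39.4, 32.8 and 50.7 CPM with the sponge and 29.1 and 33.4 CPM with the scramble. One sponge library was above 1 mutated control library, so the vector types overlapped. Ccl7 was 2.14-fold higher (log2 fold change 1.10, SE 0.14, edgeR adjusted p = 0.0114), with a difference of 1.03 between the hairpin groups (95% interval 0.60 to 1.46). Without a single library its call held in 6 of 10 fits.

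Cxcl2, a neutrophil chemokine, was more even between the hairpin groups. Its levels were 550, 394 and 403 CPM with overexpression, 390 and 409 CPM in the mutated control, 270, 275 and 293 CPM with the sponge and 281 and 270 CPM with the scramble. Overexpression replicate 1 stood apart from the other 4 hairpin libraries. Cxcl2 was 1.53-fold higher (log2 fold change 0.61, SE 0.09, edgeR adjusted p = 0.025). Overexpression passed (edgeR adjusted p = 0.014) and the mutated control gave 0.53 with an adjusted p of 0.0858. Its call held in 4 of 10 fits without a single library.

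Other called genes of inflammation were outside the naming rule and were chosen after their values were seen. Ccl4, a chemokine, was 1.43-fold higher, and Pf4, the platelet factor that macrophages also make, 1.51-fold. C5ar1, the receptor for the complement fragment C5a, had 322 ± 33.6 CPM against 242 ± 12 CPM (SD, n = 5 each) and was 1.30-fold higher. Irak2, a kinase of Toll-like receptor signalling, was 1.21-fold higher. Tnfsf18, the ligand of the costimulatory receptor Tnfrsf18, was 1.97-fold higher but low, at 2.29 against 1.17 CPM. Over both hairpin groups, the edgeR adjusted p-values of these genes of inflammation ran from 0.0394 to 0.0496.

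Hmox1, which breaks down heme, was the most abundant of the named rises. It had 795, 817 and 786 CPM with overexpression and 726 and 857 CPM in the mutated control. Sponge libraries had 533, 514 and 603 CPM and scramble libraries 609 and 662 CPM. The hairpin groups were on 1 level and above every sponge-vector library. Hmox1 was 1.35-fold higher (log2 fold change 0.43, SE 0.06, edgeR adjusted p = 0.0278). Overexpression gave 0.44 (edgeR adjusted p = 0.0221) and the mutated control 0.42 (adjusted p = 0.0659), and they differed by 0.01 with a 95% interval from −0.18 to 0.21. Hmox1 thus missed the rule for genes moved alike by its adjusted p in the mutated control, at a nearly equal fold. Its call held in 4 of 10 fits without a single library.

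Of 27 tested immediate early genes, a class that answers quickly to growth and stress signals, the transcription factors Klf2 and Egr2 rose. Klf2, a factor that restrains NF-kB target genes in myeloid cells, had 46.2, 50.8 and 46.4 CPM with overexpression, 24.0 and 28.8 CPM in the mutated control, 18.1, 18.5 and 22.7 CPM with the sponge and 21.9 and 20.5 CPM with the scramble. Overexpression stood apart, and the mutated control lay just above the sponge vectors. Klf2 was 1.74-fold higher (log2 fold change 0.80, SE 0.08, edgeR adjusted p = 0.00297), and the hairpin groups differed by 0.86 (95% interval 0.61 to 1.10). In the mutated control alone it gave 0.37 (edgeR adjusted p = 0.187).

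Egr2, a zinc-finger factor of macrophage activation, had 81.9, 68.0 and 87.5 CPM with overexpression, 49.0 and 65.9 CPM in the mutated control, 34.2, 40.5 and 48.6 CPM with the sponge and 39.7 and 43.2 CPM with the scramble. The lowest mutated control library was only just above the highest sponge library. Egr2 was 1.63-fold higher (log2 fold change 0.71, SE 0.11, edgeR adjusted p = 0.0401), a call that held in 3 of 10 fits without a single library. Plk3, a polo-like kinase of the stress response, was chosen after its values were seen because its call held in all 10 such fits. It had 30.3 ± 5.3 CPM against 18.4 ± 2.0 CPM (SD, n = 5 each; 1.55-fold, edgeR adjusted p = 0.00297).

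**Figure D3:**
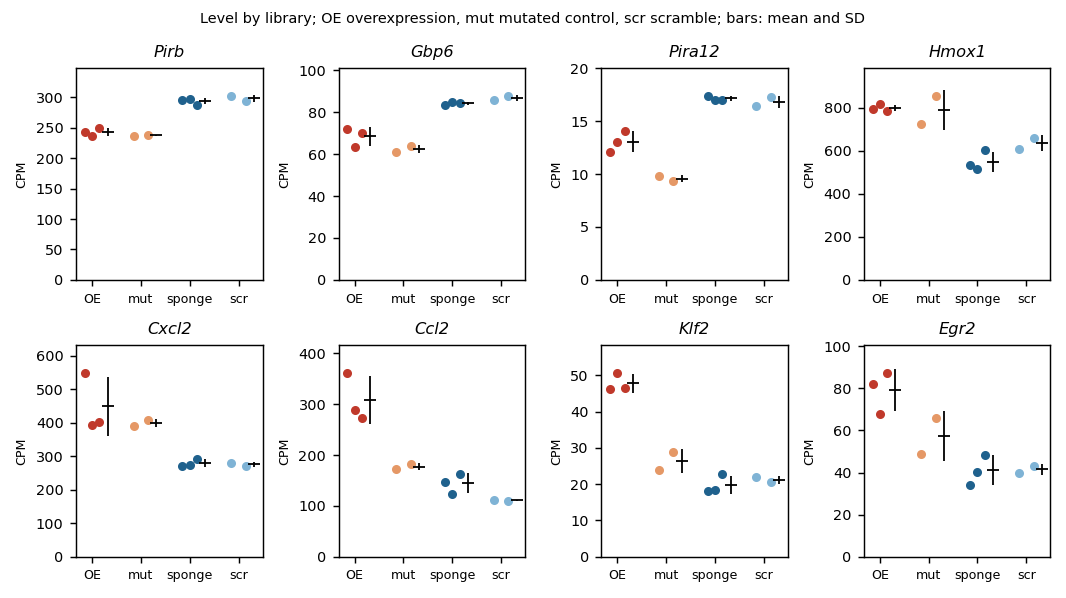
CPM (vertical axes, from 0) of 8 called genes in each library (points) by group, with the group's mean and SD beside them. Pirb, Gbp6 and Pira12 are lower in both hairpin groups, Hmox1 and Cxcl2 are higher in both, and Ccl2, Klf2 and Egr2 are highest with overexpression.

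The list of 31 cell cycle genes, which leaves out the called cyclin Ccnd2, gave 1 rise and 1 fall. Ccnd1, the D-type cyclin that drives entry into the cycle, had 79.5, 99.9 and 71.3 CPM with overexpression, 20.4 and 37.3 CPM in the mutated control, 14.8, 7.56 and 21.4 CPM with the sponge and 16.2 and 22.8 CPM with the scramble. The mutated control overlapped with the sponge vectors. Ccnd1 was 2.91-fold higher over both hairpin groups (log2 fold change 1.54, SE 0.26, edgeR adjusted p = 0.0439), a call that held in 3 of 10 fits without a single library, and the mutated control gave 0.77 (adjusted p = 0.406). Aurkb, the mitotic kinase of the chromosomal passenger complex, had 95.2, 87.4 and 93.8 CPM with overexpression, 68.6 and 64.1 CPM in the mutated control, 98.0, 102 and 101 CPM with the sponge and 92.3 and 85.0 CPM with the scramble. Only the mutated control was low. Aurkb was 1.21-fold lower (log2 fold change −0.27, SE 0.05, edgeR adjusted p = 0.0496), and overexpression gave −0.03 (adjusted p = 0.758). Its call held in 3 of 10 such fits. The hairpin groups differed for Aurkb (0.47, edgeR adjusted p = 0.0167), and for Ccnd1 that difference did not pass (adjusted p = 0.0916).

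The rest of the called genes, named after their values were seen, had no shared list. Among the rises, the receptor tyrosine kinase Epha2 was 2.62-fold higher at a low level (1.16 against 0.402 CPM), and the D-type cyclin Ccnd2 was 2.30-fold higher (20.4 against 8.12 CPM) with overlapping vector types. Ets2, a transcription factor of the ETS family, was 1.40-fold higher, also with overlap. Zfta was 1.34-fold higher, and its hairpin groups differed by −0.01 (95% interval −0.20 to 0.19). Tacc2, Mir22hg, Micall2 and Stk40 rose by 0.58, 0.53, 0.40 and 0.29 on the log2 scale. Among the falls, Gm14303 and Rps16-ps2 were 1.75-fold and 1.61-fold lower at under 7 CPM, and Cd109, a cell-surface protein that binds TGF-beta receptors, was lower, at 15.5 against 20.6 CPM. Nectin4 had 58.6 ± 1.47 against 70.8 ± 1.8 CPM (SD, n = 5 each), with −0.29 in overexpression and −0.25 in the mutated control, of which the first passed. Cpped1, Dnajc28 and Fcho1 fell by 0.39, 0.47 and 0.42 on the log2 scale. For 7 of the 38 genes the hairpin groups were within 0.1 of each other on that scale.

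The paired immunoglobulin-like receptors held 6 called genes in a single stretch. This cluster was picked after its values were seen. It spans 204 kb of chromosome 7, from 3714408 to 3918502 in the deposited coordinates, from Pirb to Lilra6. The table holds 9 genes there, and 8 were tested. All 8 had a log2 fold change below 0, and 6 were called: Pirb, Pira2, Pira12, Pira13, Lilra6 and Gm10693. Pira1 gave −0.42 (SE 0.08, edgeR adjusted p = 0.0637), Pira2-ps1 −0.15 (SE 0.23), and Pira2-ps2 was too low to test. In the 500 kb on either side 23 genes were tested and 0 were called, with 9 below 0 and values from −0.41 to 0.39. Among all tested genes 0.241% were called, so 0 of 23 is near the general share. The neighbour Myadm passed in the mutated control (−0.31, edgeR adjusted p = 0.0448) and not with overexpression (−0.09, adjusted p = 0.322).

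Pira2 had 51.7 ± 5.78 CPM with hairpin vectors against 71.1 ± 6.24 CPM with sponge vectors (SD, n = 5 each; 1.38-fold lower, edgeR adjusted p = 0.0374). Lilra6 had 10.3 ± 2.05 against 14.6 ± 0.74 CPM (SD, n = 5 each; 1.5-fold lower, edgeR adjusted p = 0.00708). Pira13 and Gm10693 were 1.62-fold and 1.57-fold lower at 7.08 CPM or less. These genes are close copies of each other, so the reads of 1 may be counted to another. Part of the 75-base stretches in the GENCODE vM21 transcripts occurred also in another gene of the cluster. The share was 18.3% for Pirb, 23.1% for Pira2, 14.2% for Lilra6 and 5.6% for Gm10693. These are lower limits because only 4 of the 9 genes matched that annotation. The single genes are therefore uncertain, and the 6 calls are not 6 separate observations.

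Summed over the 8 tested genes, the reads counted to the cluster do not depend on how they were divided among its members. Pirb alone made up 241 of a mean of 335 CPM with hairpin vectors and 296 of 427 CPM with sponge vectors. The sum is thus largely the Pirb result again. The sum, added after the data were seen, was 334, 339 and 361 CPM with overexpression, 324 and 319 CPM in the mutated control, 438, 433 and 412 CPM with the sponge and 426 and 425 CPM with the scramble. The vector types did not overlap. The sum was 1.28-fold lower with hairpin vectors (log2 fold change −0.36, SE 0.04, edgeR adjusted p = 0.00952). Both hairpin groups passed, with −0.31 for overexpression (edgeR adjusted p = 0.0200) and −0.41 for the mutated control (adjusted p = 0.0201), and they differed by 0.10 (SE 0.06, adjusted p = 0.379). With the cluster as 1 feature, 23 genes in all were called.

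**Figure D4:**
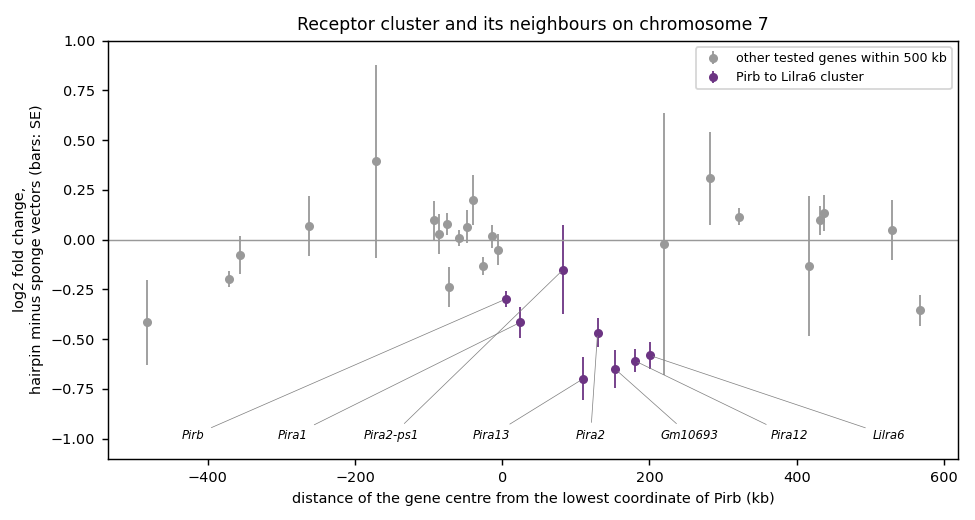
Log2 fold change, hairpin minus sponge vectors (vertical axis, bars of 1 SE), of the 8 tested genes of the receptor cluster and of 23 other tested genes within 500 kb, by the distance in kb of the gene's centre from the lowest coordinate of Pirb. The 8 cluster genes all lie below 0 and 6 are called. Of the 23 neighbours 0 are called, near the share of 0.241% among all tested genes.

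A second family of falls was the interferon-inducible GTPases, likewise grouped after their values were seen. Of 17 tested guanylate-binding and immunity-related GTPases, 16 were below 0 with a median of −0.25, and 2 were called, Gbp6 and Tgtp2. The median was −0.23 with overexpression and −0.23 in the mutated control. Iigp1 gave −0.27 (edgeR adjusted p = 0.0637), Gbp4 −0.30 (adjusted p = 0.0663) and Gbp2 −0.25 (adjusted p = 0.0738), and Gbp8 alone was above 0, at 0.01. Tgtp2 had 79.3, 74.6 and 77.5 CPM with overexpression, 57.9 and 62.2 CPM in the mutated control, 83.6, 82.0 and 85.3 CPM with the sponge and 84.0 and 84.7 CPM with the scramble. The mutated control was lowest, and the hairpin groups differed by 0.36 (edgeR adjusted p = 0.0303). Tgtp2 was 1.23-fold lower over both. It is nearly identical to Tgtp1, so reads may be divided between them, though few were counted to Tgtp1. Tgtp1 had 0.479 CPM with hairpin and 0.613 CPM with sponge vectors.

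Gene lists gave few calls and many small shifts of 1 sign. Beside them, 7689 of all tested genes were above 0 and 8078 below, with a median of −0.00. Of 27 inflammatory cytokines and chemokines 21 were above 0, 4 rose (Ccl2, Ccl7, Cxcl2 and Ccl4) and 0 fell, with a median of 0.24; the median was 0.06 with overexpression and 0.38 in the mutated control. Of 27 immediate early genes 26 were above 0 and 2 rose, Klf2 and Egr2, with a median of 0.28. For that list the median in each of the 5 hairpin libraries was above that in each of the 5 sponge-vector libraries. For the mitochondrially encoded genes it was below, but only barely. There the highest hairpin median was −0.0346 and the lowest sponge-vector median −0.0343, as log2 CPM centred on each gene's mean. In the other 23 of the 25 lists the library medians of the vector types overlapped. None of 34 type I interferon response genes was called, although 31 were below 0 with a median of −0.13. That median was −0.04 with overexpression and −0.19 in the mutated control. All 21 DNA and RNA sensing genes were below 0 with a median of −0.08, and none was called. Of 24 genes of MHC and antigen presentation, 20 were below 0, 0 were called and the median was −0.12.

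Stress lists had most members above 0, no call, and library medians that overlapped between the vector types. Of 26 genes of the integrated stress response 25 were above 0 with a median of 0.31, and of 21 genes of the unfolded protein response all 21 were, with a median of 0.16. The integrated stress response had a median of 0.43 with overexpression and 0.18 in the mutated control. Slc7a11, the cystine transporter of that list, gave 0.68 and an edgeR adjusted p of 0.0513, just outside the threshold. Its pooled value joined −0.07 with overexpression and 1.42 in the mutated control, so it was not moved alike. Of 24 sterol genes 21 were above 0, with a median of 0.43 with overexpression and −0.01 in the mutated control. Of 13 mitochondrially encoded genes 12 were below 0 with a median of −0.11 and none was called, beside the lower mitochondrial share given above. The microRNA pathway, Drosha, Dicer1 and Argonaute genes among its 21 tested members, had 0 calls and a median of −0.05. Of 31 Kupffer cell and macrophage identity genes only Hmox1 was called, with a median of −0.02.

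The other lists held no further called gene. Of 31 cell cycle genes 23 were below 0 with a median of −0.05, beside the rise of Ccnd1 and the fall of Aurkb. Of 27 genes of glutathione, NRF2 and iron 16 were above 0 with a median of 0.03, and Hmox1 rose. Of 17 genes of alternative activation 11 were above 0 with a median of 0.11, and Egr2 rose. No gene was called among glycolysis and hypoxia (21 of 26 above 0, median 0.10), fatty acid synthesis (12 of 15, 0.11), matrix and proteases (11 of 17, 0.10), heat shock (10 of 14, 0.08) or the p53 response (17 of 22, 0.07). None was called among lysosomal genes (16 of 26 below 0, median −0.03) or ribosomal proteins (30 of 31 below 0, median −0.05). The oxidative phosphorylation, LXR and lipid-associated macrophage lists had medians between −0.00 and 0.03, and these 3 and the ribosomal list changed the sign of the median under some alternative. Only 5 of 19 genes of other liver and blood cells were high enough to test, and 0 were called.

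**Figure D5:**
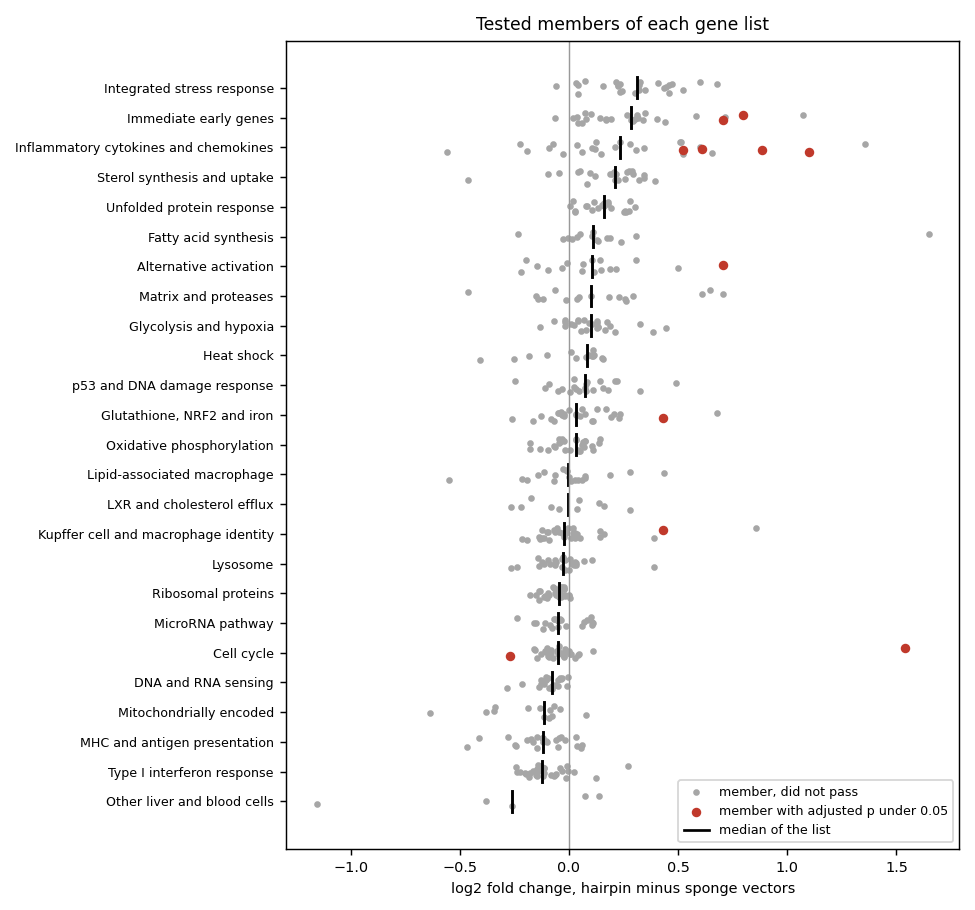
Log2 fold change, hairpin minus sponge vectors (horizontal axis), of every tested member of the 25 gene lists (rows), with called members as larger points and the list's median as a vertical line. The integrated stress response has the highest median at 0.31 with no called member, and the 4 called chemokines stand to the right of their list's median of 0.24.

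Comparisons that share no library gave a second view. In separate fits, overexpression against sponge called 15 of 14901 genes (0.101%) and mutated control against scramble 574 of 15157 (3.79%). Of the 4 genes called in both, 3 had the same sign (Ccl2, Klf2 and Mir342) and the other had opposite signs. Those 3 are 20% of the first list and 0.523% of the second. With the partners exchanged, overexpression against scramble called 6 genes (0.0395%) and mutated control against sponge 28 (0.183%), and 1 gene, Mir342, was in both lists. Pirb, Pira12 and Gbp6 did not pass with overexpression in these smaller fits, where Pirb gave −0.26 (edgeR adjusted p = 0.182) against the sponge and −0.29 (adjusted p = 0.265) against the scramble. Pirb passed for the mutated control against the scramble (−0.33, edgeR adjusted p = 0.000431) and not against the sponge (−0.30, adjusted p = 0.0953). Klf2 passed for overexpression against both and for the mutated control against the scramble only.

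Sites for the miR-342-3p seed were read from the longest 3′ UTR in GENCODE vM21, to show which called genes hold one. An 8mer is GTGTGAGA and a 7mer-m8 is GTGTGAG, on the transcript strand only. Of 11916 tested genes with a UTR, 15.2% held an 8mer or 7mer-m8. Among called genes with a UTR, 2 of 19 risen genes (Ccnd2 and Stk40) and 4 of 11 fallen genes did. The latter are printed with the site in capitals. Cpped1, a phosphatase, fell by 0.56 with overexpression and by 0.21 (edgeR adjusted p = 0.185) in the mutated control, and that difference passed (−0.35, adjusted p = 0.0451). Pira2, Nectin4, an adhesion molecule, and Fcho1, an endocytic protein, did not pass between the hairpin groups. Overexpression minus mutated control was 0.39 for Fcho1 (edgeR adjusted p = 0.0851) and 0.18 for Pira2, both opposite in sign to Cpped1, and −0.04 for Nectin4.
Cpped1: gttttctaattgtgGTGTGAGActtcccac
Fcho1: tcatctccagggctGTGTGAGctgcctat
Nectin4: tcctagggtgtggtGTGTGAGtagagtgc
Pira2: agttccttgtatgtGTGTGAGtgtgcata

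Promoters of 3 called genes are shown because they stand for the groups of rises and falls above: a chemokine, an interferon-inducible GTPase and a receptor of the cluster. Each runs from 250 bases before to 50 after the RefSeq start (GRCm38.p6), 5′ to 3′ on the gene's strand, with motif matches in capitals. Cxcl2 lies at chr5:90903649-90903948 on the plus strand, Tgtp2 at chr11:49064163-49064462 and Pirb at chr7:3720333-3720632, both on the minus strand. Both strands were searched for the NF-kB consensus, a CArG box, the GAS element TTCNNNGAA, the ISRE core (TTTC, any 2 bases, TTTC), the AP-1 site TGANTCA and the ATF/CRE site TGACGTCA. These occurred in 8.46%, 1.63%, 8.30%, 3.44%, 7.81% and 1.79% of 32841 promoters of this length. Cxcl2 held overlapping matches of the NF-kB consensus and Tgtp2 a GAS element beside an ISRE core, and none of these letters was in the Pirb window. Promoters were matched for 14 risen and 7 fallen genes. Of the risen, 2 (Cxcl2 and Egr2) held the NF-kB consensus in at least 1 window, against 12.2% of 10511 tested genes with a promoter. Of the fallen, 2 (Tgtp2 and Nectin4) held the ISRE core, against 3.96%.
Cxcl2: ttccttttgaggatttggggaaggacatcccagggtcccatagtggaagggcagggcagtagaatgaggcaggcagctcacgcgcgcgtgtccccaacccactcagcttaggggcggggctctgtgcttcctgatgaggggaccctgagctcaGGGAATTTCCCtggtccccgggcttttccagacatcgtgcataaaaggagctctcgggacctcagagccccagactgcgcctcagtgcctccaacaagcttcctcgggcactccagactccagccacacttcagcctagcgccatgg
Tgtp2: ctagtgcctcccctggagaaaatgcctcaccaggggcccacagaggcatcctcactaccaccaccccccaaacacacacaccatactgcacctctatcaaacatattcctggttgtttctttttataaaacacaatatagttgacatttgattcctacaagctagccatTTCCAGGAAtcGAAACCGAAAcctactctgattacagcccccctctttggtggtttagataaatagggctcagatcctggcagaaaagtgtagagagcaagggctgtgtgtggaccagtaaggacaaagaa
Pirb: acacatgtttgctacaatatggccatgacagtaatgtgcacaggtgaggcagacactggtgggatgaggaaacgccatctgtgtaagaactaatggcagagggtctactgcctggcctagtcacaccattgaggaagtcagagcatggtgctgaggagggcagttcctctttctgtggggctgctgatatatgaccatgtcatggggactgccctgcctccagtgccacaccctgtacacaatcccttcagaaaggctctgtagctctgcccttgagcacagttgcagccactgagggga

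The hairpin and the sponge cultures differed in vector, and whatever else differed between them cannot be told apart from it, since each vector type is made of its own groups. Just inside the threshold, Micall2, Aurkb, Ccl4, Stk40, Pf4 and Rps16-ps2 shared an edgeR adjusted p of 0.0496, and just outside it Noct had 0.0508.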

How the data were processed

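Polyadenylated RNA of 10 sorted iKC libraries was measured as whole-number read counts per gene, deposited without normalization. FeatureCounts 2.0.1 made these counts for the authors on GENCODE vM30 by gene name, per the file headers, from read pairs with both ends mapped, no chimeric pairs, a minimum overlap of 10 bases and strand setting 0, so reads of overlapping and antisense genes are mixed. The submitters' processing notes name STAR 2.7.6a, Subread, Trimmomatic and FastQC 0.11.6, with GRCm38. Annotation vM30 belongs to a later build, so coordinates of genes are those of the deposited table. The counting command names 12 libraries; 10 are analysed here.

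Deposited lines have 15 fields under 16 names, since sponge replicate 3 and a scramble library have their counts joined. Each joined number was split at its most likely place (negative binomial, dispersion 0.1, expectation from the share of reads in the intact libraries). Splits under 100 times likelier than the next were dropped, which left out 51 of 55866 genes. On 28 pairs of intact libraries joined on purpose, at least 99.8944% of genes were recovered. The order of the header assigned both scramble libraries, so their group is certain and their numbers are not.

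In R 4.3.3, edgeR 4.0.16 fitted 4 group means to all 10 libraries (robust quasi-likelihood test, TMM factors, filterByExpr by group). The fit left 6 residual degrees of freedom and tested 15767 genes. The contrast was the mean of overexpression and mutated control minus the mean of sponge and scramble. Adjusted p-values are Benjamini-Hochberg over all tested genes, with a threshold of 0.05, and SE is the log2 fold change over the square root of F. CPM were computed here with TMM factors. Functions were tested on simulated counts. Library measures were compared by exact two-sided permutation. Alternatives were other scalings and filters, DESeq2 1.42.0, limma-voom (limma 3.58.1), other splits, a 2-group fit, a length offset, replicate blocks and leaving out each library.

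The members and gene lists were chosen with earlier results of these data known. Named genes were Mir342 and Evl, genes called alike at a mean log2 CPM from 2 upwards, separate groups and a standard symbol, up to 3 called genes per list by smallest p, and up to 5 called genes with the largest difference between the hairpin groups. Genes named outside this rule were chosen after their values were seen.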

Additional observations from a re-analysis of the deposited data

Results flagged for a closer look

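Among 86 checks of 5 libraries each, 4 had 1 library apart from the other 4 by more than 0.71 of the range, where chance gives about 1 in 20. Cxcl2 had 550 CPM in overexpression replicate 1, and Ccl4, a chemokine, 116 CPM in the same library, each above the other hairpin libraries. Tnfsf18 had 0.926 CPM in sponge replicate 2, below the other sponge-vector libraries, and Gm10693 had 6.22 CPM in sponge replicate 1, above them.

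For 8 genes called between the vector types the 2 hairpin groups differed from each other, by a test of that difference (edgeR, adjusted p under the threshold). Overexpression minus mutated control on the log2 scale was 1.66 for Mir342, 1.03 for Ccl7, 0.86 for Klf2, 0.80 for Ccl2, 0.47 for Aurkb, 0.44 for Pira12, 0.36 for Tgtp2 and −0.35 for Cpped1. The first 4 rose further with overexpression. Aurkb, Pira12 and Tgtp2 were lower in the mutated control, and Cpped1 was lower with overexpression.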

How the results depend on the processing

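The calls were not stable. Kept directions were largely fixed in advance, since the 38 genes were chosen by the same libraries that were fitted again. All 38 genes kept their direction in 23 alternatives. A further one, with the receptor cluster as 1 feature in place of its genes, was chosen after seeing the data and called 23 genes. The count of 38 became 25 with upper-quartile factors, 660 with no expression filter, 390 with DESeq2, 247 with a length offset, 7 with a 2-group fit and 6 without both libraries of the joined field. It ranged from 4 to 183 when 1 library was left out. Whether replicate numbers pair the samples was not settled. Of 13 same-numbered pairs, 3 correlated over 0.1 by title number and 1 by library number, in deviations from group means. In a group of 2 such deviations mirror each other, and the numbers of the scramble libraries are not certain. Same-numbered pairs by title ran from −0.842 to 0.466, while overexpression replicate 1 with sponge replicate 3 gave 0.791. With the replicate as a block the count was 6 by title number and 9 by library number, and 1 gene was called alike in either. The count of 4 called alike became 98 with no expression filter, 42 with DESeq2, 26 with a length offset and 1 without the joined libraries, and ranged from 1 to 14 when 1 library was left out. The difference in mitochondrial share, hairpin minus sponge vectors in percent of reads, was -0.0697 without the joined libraries (exact permutation p = 0.107), and with 1 library left out it ranged from -0.123 to -0.0813, the latter without scramble replicate 1 (exact p = 0.0556). For the share of the 50 most abundant genes it was -0.329 without the joined libraries (exact p = 0.0893) and ranged from -0.558 to -0.377, the latter without sponge replicate 3 (exact p = 0.0635). The medians of the LXR, oxidative phosphorylation, ribosomal protein and lipid-associated macrophage lists, all near 0, changed sign under some alternative. The causes were not tested. Groups of 2 and 3 libraries and 6 residual degrees of freedom limit the calls.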
